A study of Mus musculus with 12 samples.

Results

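The libraries described here came from differentiated mouse cells lacking SUV420H2 (KO) and from wild-type (WT) cells taken through the same days. There were 4 of them among the 12 libraries of the series: 1 per genotype at day 8 and 1 at day 12, chosen by their labels and compared within a day. The other 8 libraries are undifferentiated embryonic stem (ES) cells of WT, KO and a SUV420H1/H2 double knockout (DKO), with 2 libraries per genotype, and the DKO cells at both days. Polyadenylated RNA was sequenced. All genotypes were grown, before differentiation, without feeder cells on gelatin and with 1.5 µM of the GSK3 inhibitor CHIR9901, which stabilises beta-catenin. Growth conditions are given only for ES culture, and the labels call the differentiated cells ES cells too. The term embryoid body, used below, comes from the naming of the deposited data. The differentiation medium, the mouse strain, the way the knockout was made and whether it is 1 clone are not stated by the sources at hand. With 1 library per genotype and day, the days had to stand in for replicates, so a p-value measures how well the difference repeats from day 8 to day 12.

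SUV420H2 (also called KMT5C) turns dimethylated lysine 20 of histone H4 into the trimethylated form, which is found at pericentromeric repeats, telomeres and some transposable elements, and its relative SUV420H1 mainly makes the dimethylated form. ES cells that aggregate without the factors that hold them in pluripotency form embryoid bodies. Their outer layer becomes extraembryonic endoderm with a basement membrane, and mesoderm inside gives rise to blood, endothelium and beating heart muscle. As this happens the pluripotency network of Oct4 (Pou5f1), Sox2 and Nanog is shut down.

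The targeted gene was checked first. Suv420h2, on chromosome 7, was at 127.8 CPM (read counts scaled to library size) on day 8 and 124.1 CPM on day 12 in WT, against 26.4 and 40.1 on the same days in KO. Both KO libraries lay below both WT libraries, and the fitted log2 difference was -1.91 (SE 0.34, edgeR adjusted p = 0.10, 7.4e-09 to 0.48 over the alternatives). The reads left in KO are those of the whole transcript model, and the labels do not give which part of the gene was removed. Suv420h1, on chromosome 19, read 56.1 and 54.1 CPM in the WT libraries against 49.7 and 51.4 in those of KO, a log2 difference of -0.12 (SE 0.23, adjusted p = 0.79, 0.28 to 0.96 over the alternatives).

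Reads counted in genes ran from 22538336 (KO, day 8) to 26675600 (WT, day 12). The cell lines differed in more than Suv420h2. The Y-linked genes Ddx3y, Eif2s3y and Uty had at most 1 read each in a KO library and 11.0 to 37.3 CPM in the WT libraries, the median X-linked gene was higher in KO, and the median genes of chromosomes 1 and 14 were lower, as they were between the same lines in ES cells (values are given further on). In these data the targeted deletion and any other difference between the lines cannot be told apart. Bulk RNA also cannot tell fewer cells of a type from less RNA per cell.

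Across the genome the KO and WT embryoid bodies lay far apart, but the design gave little power to call single genes. Of 12896 genes with at least 1 RPKM (reads scaled to transcript length and library size) in at least 2 of the 6 differentiated libraries, 0 passed an adjusted p of 0.05 in edgeR's quasi-likelihood test with genotype and day, where the smallest value was 0.061. At an unadjusted p under 0.05 there were 3002 genes (23.3%), 1746 higher and 1256 (9.74%) lower in KO. DESeq2 on the same counts called 1836 genes and limma on log2(RPKM + 1) called 136. A fit of all 12 libraries, which takes part of its estimate of spread from the ES libraries, called 3698 of 13429 genes, 2182 higher (16.2%) and 1516 lower (11.3%). The variation between libraries, as edgeR's coefficient of variation, was 0.37 within the differentiated libraries and 0.11 within the ES libraries, so that fit assumes a smaller spread than the differentiated libraries show. Without the KO day 8 library it called 2140 genes. Below, "passed" means the 12-library fit at an adjusted p under 0.05, and no gene named passed the 6-library test.

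Size was described day by day, as the log2 difference of CPM + 0.5 between KO and WT. Past 2-fold on each of the 2 days, 716 genes (5.55%) lay higher and 547 genes (4.24%) lower in KO. Day 8 differed more: 2293 genes were at least 2-fold lower on day 8 (17.8%) and 1140 on day 12 (8.84%), against 1631 (12.6%) and 1464 (11.4%) that were higher. Another 231 genes (1.79%) were at least 2-fold lower on day 8 and at least 2-fold higher on day 12, and 71 genes (0.551%) did the reverse. These shares of all genes stand as the background of the list counts below. The division into higher and lower moved with the scaling, from 716 and 547 with TMM to 919 and 415 with plain library totals, which placed the median gene at 0.06 on day 8 and 0.24 on day 12 in place of -0.03 and 0.08. Across genes the differences of day 8 and day 12 had a Pearson correlation of 0.44 over 12896 genes, which share the libraries of each day and are not independent.

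**Figure D1:**
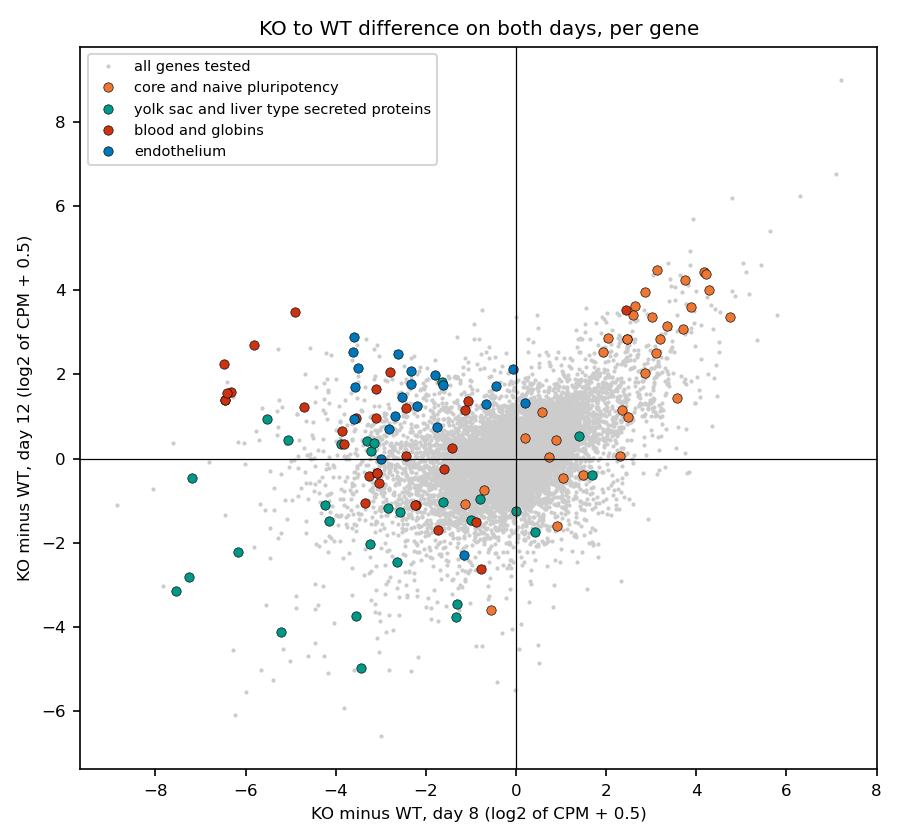
KO minus WT difference of each gene on day 8 (x axis) and on day 12 (y axis), in log2 of CPM + 0.5; grey dots are the 12896 genes tested and coloured dots the members of 4 gene lists. Core and naive pluripotency genes (median 2.54 and 2.68) fill the upper right, secreted proteins of yolk sac and liver type the left, and most blood and endothelial genes the upper left, lower on day 8 and higher on day 12.

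The genes highest in KO on both days included an X inactivation pair and a set of genes already high in KO ES cells. Xist, the RNA that coats and silences an X chromosome, had 1.23 and 0.75 CPM in the 2 WT libraries and 256 and 642 in the 2 KO libraries (day 8 and day 12 throughout). Tsix, transcribed across Xist from the other strand, stood, by day, at 1.11 and 0.91 CPM for WT against 44.4 and 102 for KO. Without stated strand counting, reads of these overlapping genes cannot be told apart. Olig1 and Olig2, neighbouring genes for transcription factors of the oligodendrocyte and motor neuron lineage, were under 1 CPM in both WT libraries. In KO Olig1 was at 69.2 and 37.4 CPM and Olig2 at 38.4 and 16.0 CPM. They had stood at 76.8 to 93.6 CPM in the KO ES libraries. The X-linked Pnma5 (162 and 69.1 CPM in KO against 2.77 and 1.15 CPM in WT), Usp26 (44.2 and 23.3 against 0.81 and 0.60) and AU022751 (24.5 and 13.4 against 0.08 in both) followed. Hsd17b14, which encodes a steroid dehydrogenase, read 44.3 and 17.2 CPM in the KO libraries against 1.92 and 0.28 in those of WT. Rpl29 read 684 and 612 CPM in the KO libraries against 4.5 and 5.16 in those of WT, but this ribosomal protein gene has many near-identical pseudogenes, so its value is uncertain. Every gene of this paragraph was lower than 10 CPM in both WT libraries and above it in both KO libraries. The ranking that picked them makes such a separation likely.

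The genes lowest in KO on both days, apart from the Y-linked ones, included imprinted genes, a laminin and an apolipoprotein. Zim1, an imprinted zinc finger gene, read 64.7 and 64.4 CPM in the WT libraries against 0.80 and 1.49 in those of KO. Cdkn1c, the imprinted cell cycle inhibitor p57, had 670 and 1085 CPM in the 2 WT libraries and 20.4 and 38.4 in the 2 KO libraries, and Grb10, an imprinted brake on insulin signalling, was at 724 and 442 CPM for WT against 29.0 and 16.5 for KO. Lama1, the laminin chain of the first embryonic basement membranes, stood, by day, at 125 and 1577 CPM for WT against 6.50 and 45.7 for KO. The groups did not overlap for any of these genes, which the ranking that picked them makes likely. Fmod (fibromodulin of collagen matrix), Slc34a2 (a phosphate transporter), Aqp8 (a water channel) and Apoa4 (an apolipoprotein) had log2 differences between -6.29 and -4.13 on the 2 days. Tmem181b-ps, a pseudogene at 48.5 and 52.3 CPM for WT against 0.67 and 0.87 for KO, shares sequence with its parent gene and is uncertain.

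The pluripotency network was higher in KO embryoid bodies on both days. All 34 genes listed for core and naive pluripotency could be tested. On both days 22 were at least 2-fold higher and 1 (Stat3) at least 2-fold lower. In this list 25 passed as higher and 3 as lower (16.2% and 11.3% of all genes). The list's median difference was 2.54 on day 8 and 2.68 on day 12 (all genes, -0.03 and 0.08), while in ES cells it was 0.06 by the fit. That ES median hides differences in both directions. In ES cells 14 of the 34 were called higher and 11 lower in KO, at an adjusted p under 0.05 in edgeR (23.5% and 19.2% of all genes). Pou5f1 read 115.9 and 57.3 CPM in the WT libraries against 1059 and 416 in those of KO, a fitted log2 difference of 3.04 (SE 0.25, adjusted p = 0.075, 5.5e-67 to 0.47 over the alternatives). Sox2 had 219 and 74.3 CPM in the 2 WT libraries and 1208 and 534 in the 2 KO libraries. Nanog stood, by day, at 39.0 and 13.3 CPM for WT against 286 and 214 for KO. For each of these regulators the lower KO library was above the higher WT library. In ES cells Pou5f1 had been at 1765 and 1762 CPM for WT against 1640 and 2027 for KO. The list's median log2 difference between day 12 and ES cells was -4.36 in WT and -2.13 in KO. Between day 8 and ES cells it was -3.38 in WT and -0.79 in KO. The summed level of its 34 genes was 2920 and 3680 CPM for WT and 11800 and 5860 for KO. In the ES libraries of both lines it was 20300 to 23200. By this list each WT and KO differentiated library lay below the ES libraries, KO day 8 by the least.

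The members that ranked highest, by the smaller of the 2 day differences, were Gdf3, Dppa3, Lefty2 and Nr0b1. Gdf3, a TGF-beta family ligand, read 8.57 and 2.46 CPM in the WT libraries against 167 and 61.5 in those of KO. Lefty2, a secreted Nodal inhibitor and target, had 26.4 and 7.82 CPM in the 2 WT libraries and 526 and 133 in the 2 KO libraries (log2 4.21, SE 0.23, adjusted p = 0.061, 7.6e-186 to 0.47 over the alternatives). Nr0b1 (Dax1, an X-linked repressor bound to Oct4 in ES cells) and Dppa3 (Stella, a maternal factor that protects methylation) were 3.76 to 4.44 higher on the log2 scale on each day. Not every member did the same. Klf4 stood, by day, at 56.0 and 635 CPM for WT against 37.7 and 51.9 for KO, a log2 difference of -3.60 on day 12, and Stat3, the effector of LIF, differed by -1.14 and -1.09. Zfp42 (Rex1), by contrast, differed by 0.20 and 0.49 in embryoid bodies, although it had been at 2585 and 2440 CPM for WT against 234 and 270 for KO ES cells.

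Primed epiblast genes, which mark the state that follows naive pluripotency, were higher as well. Of 17 tested, 11 were at least 2-fold higher on both days and 0 lower (5.55% and 4.24% of all genes), with medians of 2.35 and 1.61. Nodal had 13.5 and 8.70 CPM in the 2 WT libraries and 122 and 44.1 in the 2 KO libraries. Foxd3, a repressor of ES and neural crest cells, stood, by day, at 15.8 and 5.16 CPM for WT against 86.7 and 26.1 for KO. All 4 libraries were ordered alike for both genes: KO day 8, KO day 12, WT day 8, WT day 12.

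Primitive streak and early mesoderm genes were divided. Of 19 tested, 8 were at least 2-fold higher on both days and 3 lower (5.55% and 4.24% of all genes). The medians were 0.50 and 1.46. T (0.15 RPKM) and Lhx1 (0.48 RPKM) were under 1 RPKM in WT on day 8, so each needed a mutant library to be tested. The count of higher members is thus partly set by the floor. T (Brachyury), the T-box factor of the streak, read 0.54 and 9.17 CPM in the WT libraries against 41.5 and 67.9 in those of KO. Fgf8, the streak's FGF ligand, had 2.19 and 6.35 CPM in the 2 WT libraries and 27.3 and 27.4 in the 2 KO libraries, and Lhx1, a homeobox factor of the streak and node, was at 2.27 and 8.14 CPM for WT against 22.5 and 38.2 for KO. Tcf15 (Paraxis), which also primes ES cells for differentiation, was 2.94 and 2.08 higher. Pdgfra, a growth factor receptor found in mesoderm and in primitive endoderm, went the other way, at 233 and 339 CPM for WT against 17.4 and 70.9 for KO. T, Lhx1, Tcf15 and Pdgfra passed and Fgf8 did not.

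**Figure D2:**
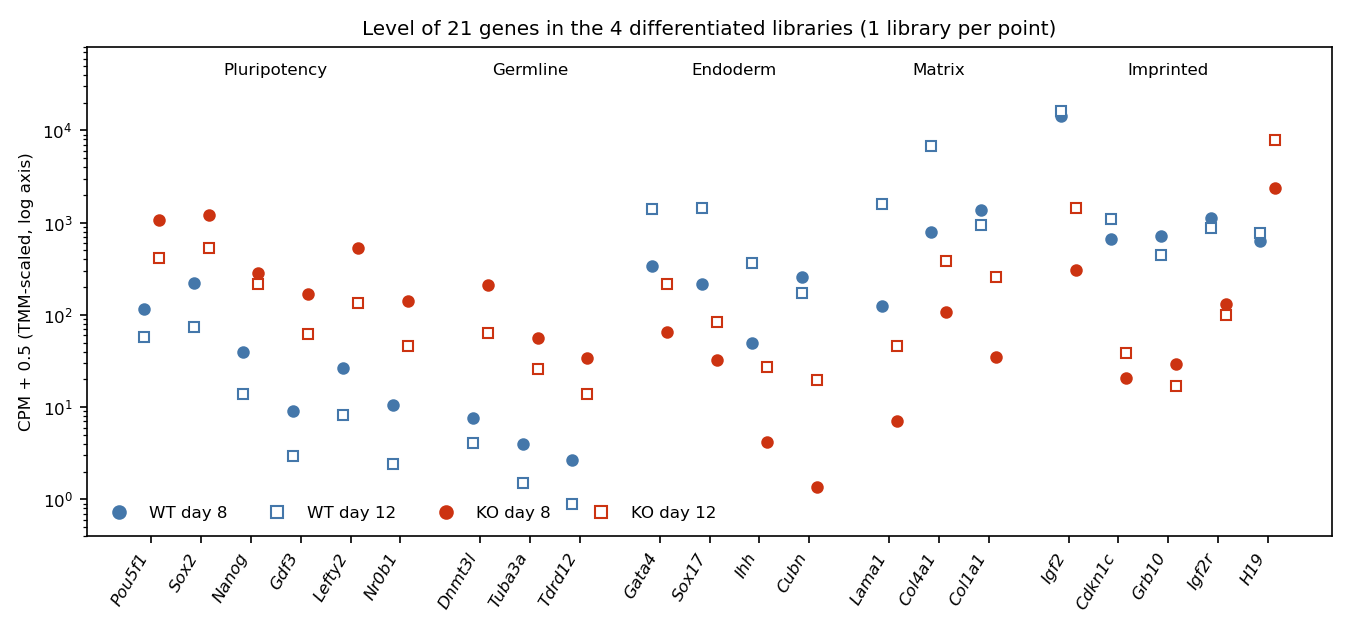
Level of 21 genes in the 4 libraries as CPM + 0.5 on a log axis; blue is WT, red is KO, filled circles are day 8 and open squares day 12, with 1 library per point. Levels can be compared within a gene and not between genes, since CPM is not divided by length. In each gene shown the KO points lie on 1 side of the WT points. The genes were picked by their difference or after their values were seen.

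Germline genes, which promoter DNA methylation and Polycomb group complexes keep silent in somatic cells, included several that were higher in KO, among them Dnmt3l, Tdrd12 and Tex19.1 (values below). Of 35 genes listed, 17 reached 1 RPKM in 2 of the 6 libraries and could be tested. Members scarce in WT, such as Tdrd12 at 0.77 and 0.14 RPKM in WT against 11.6 and 4.9 in KO, could reach it only through the mutant libraries and so had to differ, and no count of the members that differed is given. To describe these promoters, 5 short motifs were searched, on both strands, in RefSeq windows (GRCm38.p6). The windows ran from 250 bases before to 50 after each gene's start. Only tested members of 7 gene lists were searched, so germline genes below the floor are left out. The E-box CACGTG, a palindrome bound by basic helix-loop-helix factors such as MAX with MGA, a pair that brings a Polycomb group complex to germline genes in ES cells, was in 7 of 15 germline genes matched (46.7%) and in 8.09% of all genes. Among windows with at least 10 CpG it was in 10.9%. Among the others, the POU octamer ATGCAAAT (1.97% of all genes), the GATA motif AGATAAG (3.5%) and the HNF4 motif CAAAGTCCA (0.555%) were in no germline window. In the other 6 lists the E-box was in 3 of 9 primed epiblast genes (33.3%), 1 of 10 endoderm regulators, 1 of 21 pluripotency genes, 1 of 22 yolk sac genes, 1 of 22 blood genes and 0 of 20 matrix genes. The octamer was in 2 of 21 pluripotency genes (9.52%), in 2 of 20 matrix genes and in 0 of the other lists, and the GATA motif in 1 of 21 pluripotency, 1 of 22 yolk sac and 1 of 22 blood genes. The E-box was picked out after the counts were seen, and a match is no proof of binding. The windows of 5 germline members that hold the E-box follow, 5′ to 3′ on the gene's own strand, with the motif in capitals.

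Dnmt3l, chr10:78049592-78049891, plus strand: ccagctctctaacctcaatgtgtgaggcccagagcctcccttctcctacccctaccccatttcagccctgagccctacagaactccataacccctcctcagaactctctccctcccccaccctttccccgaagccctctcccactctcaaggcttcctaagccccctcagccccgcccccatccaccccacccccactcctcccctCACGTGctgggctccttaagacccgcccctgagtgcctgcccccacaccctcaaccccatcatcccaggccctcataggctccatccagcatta
Mael, chr1:166238695-166238994, minus strand: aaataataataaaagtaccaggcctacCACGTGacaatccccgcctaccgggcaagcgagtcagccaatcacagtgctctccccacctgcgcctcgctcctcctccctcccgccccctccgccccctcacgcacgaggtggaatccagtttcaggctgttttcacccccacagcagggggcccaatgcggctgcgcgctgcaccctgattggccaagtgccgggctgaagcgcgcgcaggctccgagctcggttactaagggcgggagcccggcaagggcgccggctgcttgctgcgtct
Ddx4, chr13:112652261-112652560, minus strand: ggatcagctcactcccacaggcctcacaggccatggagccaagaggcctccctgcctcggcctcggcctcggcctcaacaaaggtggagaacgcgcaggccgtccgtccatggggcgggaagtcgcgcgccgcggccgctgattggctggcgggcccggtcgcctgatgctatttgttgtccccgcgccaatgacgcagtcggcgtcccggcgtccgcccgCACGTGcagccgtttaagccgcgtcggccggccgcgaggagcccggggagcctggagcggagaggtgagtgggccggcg
Sycp3, chr10:88459337-88459636, plus strand: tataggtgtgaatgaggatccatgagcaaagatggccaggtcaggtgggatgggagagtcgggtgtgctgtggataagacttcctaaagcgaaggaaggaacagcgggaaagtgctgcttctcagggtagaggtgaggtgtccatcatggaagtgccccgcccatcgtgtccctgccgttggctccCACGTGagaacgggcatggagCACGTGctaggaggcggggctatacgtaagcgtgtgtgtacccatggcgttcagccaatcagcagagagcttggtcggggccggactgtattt
Zp3, chr5:135979855-135980154, plus strand: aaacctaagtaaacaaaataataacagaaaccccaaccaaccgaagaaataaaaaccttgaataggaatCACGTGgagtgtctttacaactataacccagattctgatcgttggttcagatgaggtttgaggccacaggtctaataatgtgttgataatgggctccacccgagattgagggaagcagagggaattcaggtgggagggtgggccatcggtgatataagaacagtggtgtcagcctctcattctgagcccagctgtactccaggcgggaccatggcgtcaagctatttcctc

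The E-box starts 44 bases before the annotated start in Dnmt3l, 29 before in Ddx4, 64 and 43 before in Sycp3, and farther out in Zp3 (181) and Mael (223). Dnmt3l has 3 such windows in the table, and the motif is in this 1 of them. Dnmt3l, the catalytically inactive partner of the de novo DNA methyltransferases, stood, by day, at 7.07 and 3.57 CPM for WT against 209 and 63.9 for KO (log2 4.55, SE 0.30, adjusted p = 0.075, 2.6e-86 to 0.47 over the alternatives). It had stood at 73.8 and 83.5 CPM in WT ES cells and 215 and 232 CPM in KO ES cells. The other 4 genes shown were scarce: Mael, of the piRNA pathway, was at 0.58 and 0.68 CPM for WT against 7.22 and 4.73 for KO, and Zp3, a protein of the egg coat, at 0.31 and 0.32 CPM for WT against 9.69 and 2.66 for KO. Sycp3, of the meiotic chromosome axis, was 1.91 and 1.57 higher, and Ddx4 (Vasa) 1.13 and 1.09 higher, the smallest difference of the 5. Tdrd12, a piRNA pathway factor, was 3.69 and 3.95 higher and Tex19.1, which restrains retrotransposons in germ cells, 2.76 and 1.33 higher. Tuba3a, a testis tubulin, was 3.82 and 4.13 higher, but it shares sequence with other tubulin genes.

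Two-cell-like genes, a set that marks a rare ES cell state resembling the early embryo, were nearly all too low to test. Of 30 in the files only 6 could be tested. Genes this low in WT, such as Gm4340 at 0.44 and 0.18 RPKM in WT against 9.17 and 12.8 in KO, can be tested only through the mutant libraries and so had to differ, and no count of them is given. Gm4340 read 0.96 and 0.40 CPM in the WT libraries against 20.8 and 27.0 in those of KO, levels like the 25.3 and 24.2 CPM of KO ES cells. AU018091 had 17.1 and 34.1 CPM in the 2 WT libraries and 147 and 80.3 in the 2 KO libraries. Gm4340 belongs to a multicopy family, so the division of its reads is uncertain.

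Genes that specify endoderm were lower in KO. Of 16 endoderm regulators tested, 8 were at least 2-fold lower on both days and 2 higher (4.24% and 5.55% of all genes). The medians were -1.35 and -1.33. Gata4, a zinc finger factor of primitive endoderm and heart, stood, by day, at 339 and 1395 CPM for WT against 64.5 and 214 for KO (log2 -2.51, SE 0.45, adjusted p = 0.10, 4.0e-13 to 0.47 over the alternatives). Sox17, an endoderm and endothelial factor, read 218 and 1430 CPM in the WT libraries against 32.2 and 84.3 in those of KO. Both genes were higher on day 12 than on day 8 in each genotype, with KO below WT on each day. Sox7, which acts early in visceral endoderm, had log2 differences of -2.37 and -2.67 and passed too.

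The products of yolk sac and liver type endoderm showed 2 patterns. Of 29 tested, 15 were at least 2-fold lower on both days and 0 higher (4.24% and 5.55% of all genes). The median was -3.22 on day 8 and -1.25 on day 12. Members scarce in KO, such as Amn at 0.75 and 0.62 RPKM against 10.1 and 23.6 in WT, could not reach the floor through KO. The count of lower members is thus partly set by the floor. Cubn (cubilin), an uptake receptor of visceral endoderm, had 256 and 172 CPM in the 2 WT libraries and 0.88 and 19.12 in the 2 KO libraries, and its membrane partner Amn was at 29.5 and 70.4 CPM for WT against 2.27 and 1.75 for KO. Ihh, the hedgehog ligand that visceral endoderm sends to mesoderm, stood, by day, at 48.7 and 361 CPM for WT against 3.74 and 26.5 for KO. For these 3 genes, picked by the size of their difference, the groups did not overlap. Day 8 held 23 members at least 2-fold lower and day 12 held 18. Afp and Ttr, serum protein genes picked out after their values were seen, were lower on day 8 alone. Afp read 15.4 and 81.9 CPM in the WT libraries against 1.22 and 93.7 in those of KO, and Ttr was at 71.5 and 63.2 CPM for WT against 1.64 and 85.1 for KO, so that on day 12 both genes were slightly higher in KO. Apoa4 was still lower on day 12, at 113.5 CPM for WT against 6.01 for KO.

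Genes for the matrix that endoderm and mesenchyme lay down were lower too. Of 28 collagen, laminin and other matrix genes tested, 15 were at least 2-fold lower on both days and 0 higher (4.24% and 5.55% of all genes). As lower 18 passed (11.3% of all genes), and the medians were -2.53 and -1.17. The paired basement membrane genes Col4a1 (791 and 6686 CPM for WT, 107 and 380 for KO) and Col4a2 (728 and 5464 CPM for WT, 103 and 414 for KO) were lower together. They share a promoter and encode chains of 1 trimer. Col6a1 and Col6a2, of microfibrils, had log2 differences between -4.14 and -1.85. Col1a1, of fibrous matrix, had 1353 and 950 CPM in the 2 WT libraries and 34.3 and 258 in the 2 KO libraries. P4ha1, a collagen prolyl hydroxylase, stood, by day, at 285 and 671 CPM for WT against 121 and 215 for KO. Among 27 smooth muscle and mesenchyme genes 7 were at least 2-fold lower on both days and 0 higher, with medians of -3.01 and -0.39. At least 2-fold lower on day 8 were 22 (17.8% of all genes), against 7 on day 12 (8.84%). Dcn (decorin), at 7.15 and 18.5 CPM for WT against 0.55 and 3.68 for KO, was among those lower on both.

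**Figure D3:**
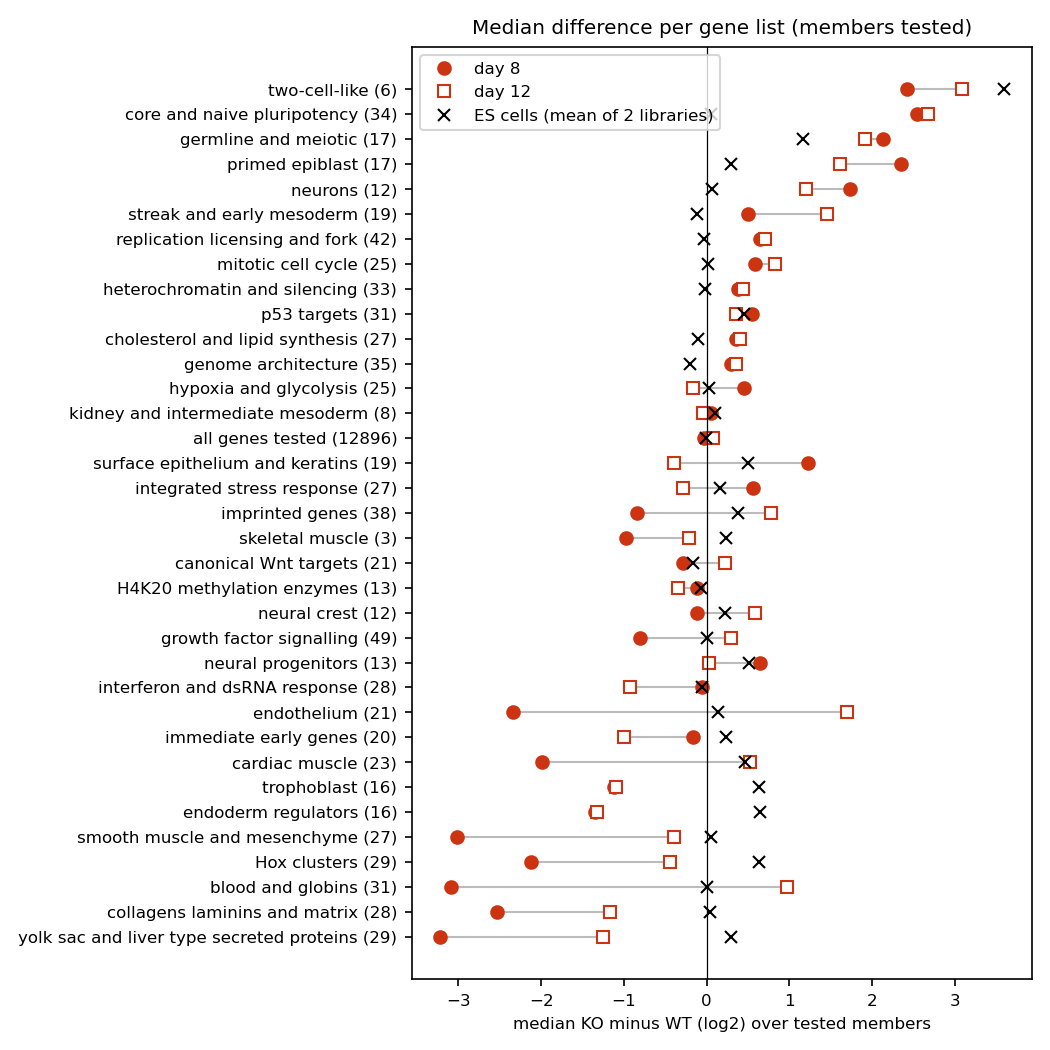
Median KO minus WT difference (log2 of CPM + 0.5, x axis) over the tested members of each gene list (y axis, number tested in brackets), on day 8 (filled circles), day 12 (open squares) and in ES cells (crosses, means of 2 libraries). Every list holds only members that reached the floor on low values. Pluripotency and primed lists lie to the right on both days, yolk sac and matrix lists to the left on both days, and endothelium (-2.34 and 1.69) and blood (-3.09 and 0.97) lie on opposite sides on the 2 days.

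Many blood and vessel genes and some heart genes lay below WT on day 8 and above it on day 12. Of 31 blood and globin genes tested, 28 were at least 2-fold lower in KO on day 8 (17.8% of all genes). At least 2-fold higher on day 12 were 14 (11.4%), and 13 were both (1.79%). By any amount 11 of the 31 were lower on both days and 1 higher, and 6 were at least 2-fold lower on day 12. The blood genes named next were picked for opposite signs or after their values were seen. Hbb-bh1, an embryonic beta-like globin of primitive red cells, was at 1368 CPM on day 8 and 8.66 CPM on day 12 in WT, against 44.9 and 103 in KO. Hbb-y, the other embryonic beta globin, ran from 418 to 14.5 CPM in WT and from 4.74 to 43.9 CPM in KO. Gata1, the erythroid master regulator, ran from 96.4 to 3.93 CPM in WT and from 7.81 to 8.16 CPM in KO. The WT values were thus lower on day 12 than on day 8 and those of KO were not, and on day 12 KO lay above WT. Slc4a1, the red cell anion exchanger, did the same, from 137 to 1.79 CPM in WT and from 1.93 to 14.4 CPM in KO. The summed level of the 35 blood and globin genes in the files was 7050 and 1050 CPM for WT and 419 and 1020 for KO. A test across both days averages such opposite differences, so Hbb-bh1 had an adjusted p of 0.94 (2.7e-04 to 0.95 over the alternatives), and the difference between the days was not tested, having 1 library on each side.

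The endothelial genes gave the same picture. Of 21 tested, 17 were at least 2-fold lower on day 8, 16 at least 2-fold higher on day 12 and 12 both. Over all genes these shares were 17.8%, 11.4% and 1.79%. Kdr (Flk1), the VEGF receptor of blood and vessel precursors, ran from 285 to 41.4 CPM in WT and from 55.8 to 141 CPM in KO. Plvap, of endothelial diaphragms, ran from 262 to 10.01 CPM in WT and from 21.3 to 78.2 CPM in KO, and Icam2, an endothelial adhesion molecule, from 27.4 to 1.51 and from 2.77 to 12.6 CPM. Exceptions were Flt1, the decoy VEGF receptor, at 69.0 and 283 CPM for WT against 30.6 and 57.4 for KO, which was lower on both days, and Pecam1, which differed by -0.06 on day 8 and 2.12 on day 12. Gata2 and Runx1, regulators of definitive blood, were also lower on both days (log2 differences of -0.77 and -2.62, and of -2.21 and -1.10).

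In cardiac muscle 16 of 23 tested genes were at least 2-fold lower on day 8 (17.8% of all genes). At least 2-fold higher on day 12 were 8 (11.4%), and 6 were both (1.79%). The medians were -1.99 and 0.52, and by any amount 5 genes were lower on both days and 0 higher. Actc1, cardiac actin, read 21.3 and 5.68 CPM in the WT libraries against 1.39 and 39.5 in those of KO. Myl3, a ventricular light chain, broke the pattern, at 1.92 and 77.5 CPM for WT against 1.30 and 1.46 for KO. Nkx2-5, the early heart factor, differed by -1.31 and -0.42.

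**Figure D4:**
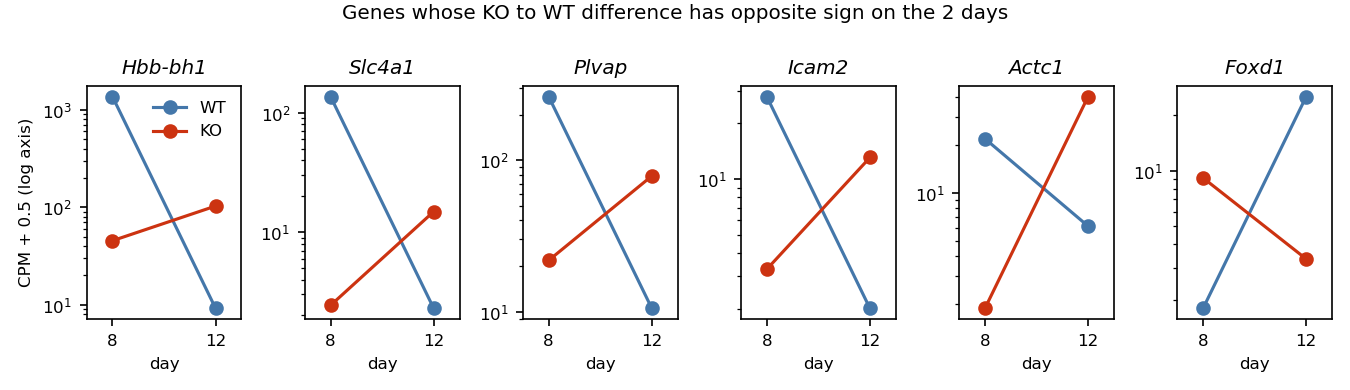
CPM + 0.5 (log axis, scaled separately per gene) on days 8 and 12 of 6 genes whose KO to WT difference had opposite signs on the 2 days; WT is blue and KO red, and each point is 1 library. Hbb-bh1, Slc4a1, Plvap, Icam2 and Actc1 were lower on day 12 than on day 8 in WT and higher in KO, and Foxd1 was the reverse.

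The reverse pattern, higher in KO on day 8 and lower on day 12, was seen in the 71 genes counted above. Foxd1, a forkhead factor of kidney stroma, had 1.31 and 24.6 CPM in the 2 WT libraries and 8.65 and 2.84 in the 2 KO libraries. Rhox6, a placental and germ cell homeobox gene, stood, by day, at 14.3 and 177 CPM for WT against 51.7 and 34.7 for KO. Lif, the cytokine that maintains mouse ES cells, read 7.57 and 78.4 CPM in the WT libraries against 25.7 and 18.6 in those of KO. Irx2 (log2 differences of 1.76, then -1.70) and Nefl (1.68, then -1.99) were similar. All 5 were higher on day 12 than on day 8 in WT and lower in KO.

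Hox genes, the homeobox clusters that pattern the trunk, were lower in KO, mostly on day 8, and trophoblast genes were divided. Of 29 Hox genes tested 8 were at least 2-fold lower on both days and 0 higher (4.24% and 5.55% of all genes). At least 2-fold lower on day 8 were 23 (17.8% of all genes), and the medians were -2.12 and -0.44. Some, such as Hoxc9 at 0.68 and 0.91 RPKM in KO against 6.73 and 2.84 in WT, could not reach the floor through KO. The counts of lower Hox genes are thus partly set by the floor. Hoxc10, of the lumbar region, had 46.0 and 45.4 CPM in the 2 WT libraries and 1.72 and 3.64 in the 2 KO libraries. Hoxc9 (log2 differences of -2.98 and -1.55) and Hoxa9 (-2.18 and -1.24) passed as well. Of 16 trophoblast genes tested 5 were at least 2-fold lower on both days and 1 higher, with medians of -1.12 and -1.10. Among the 16, 3 passed as lower and 1 as higher (11.3% and 16.2% of all genes). On day 8, 5 of them were at least 2-fold higher, and 3 of these were at least 2-fold lower on day 12. Plac1, a placental surface protein gene on the X, stood, by day, at 35.0 and 17.6 CPM for WT against 1.55 and 4.41 for KO. Gata3, a trophoblast factor, read 42.8 and 82.2 CPM in the WT libraries against 10.5 and 26.1 in those of KO, and Krt7, a simple epithelial keratin, differed by -2.42 and -1.93. Plac1, Gata3 and Krt7 did not pass.

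Imprinted genes, which are expressed from 1 parental copy and mostly govern fetal growth, differed strongly at several clusters. Of 38 tested 4 were at least 2-fold higher on both days and 9 lower (5.55% and 4.24% of all genes). Among them 6 passed as higher and 10 as lower (16.2% and 11.3% of all genes). The list was divided by day, with medians of -0.84 on day 8 and 0.78 on day 12. On day 8, 5 were at least 2-fold higher and 17 lower (12.6% and 17.8% of all genes). On day 12, 18 were at least 2-fold higher and 10 lower (11.4% and 8.84%). Most genes named below were lower in KO and do not stand for the list. Igf2, the paternally expressed growth factor, was at 14230 and 16080 CPM in WT against 305 and 1430 in KO. In WT it took 1.41% and 1.52% of the reads counted in genes, more than any other gene. H19, its maternally expressed noncoding neighbour, went the opposite way, at 638 and 766 CPM for WT against 2384 and 7839 for KO (log2 2.77, SE 0.63, adjusted p = 0.12, 4.7e-08 to 0.47 over the alternatives). Igf2as overlaps Igf2 on the other strand, differed by -4.89 and -3.55, and cannot be told apart from it. On the next domain Cdkn1c and Phlda2, maternally expressed growth restrainers, were both lower, Phlda2 at 152 and 116 CPM for WT against 19.8 and 12.1 for KO. Igf2r, the maternally expressed receptor that clears IGF2, had 1129 and 878 CPM in the 2 WT libraries and 130 and 99.7 in the 2 KO libraries. In the ES libraries Igf2r was at 137 and 129 CPM for WT against 132 and 121 for KO. Dlk1, a paternally expressed Notch pathway ligand, read 2472 and 2274 CPM in the WT libraries against 10.4 and 277 in those of KO. No allele-specific data were analysed here.

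Neuronal genes were mostly higher in KO, and genes of neural progenitors were divided. Of 12 neuronal genes tested 5 were at least 2-fold higher on both days and 0 lower, with medians of 1.73 and 1.20. As higher 8 passed (16.2% of all genes). Ina (internexin) had 7.53 and 6.75 CPM in the 2 WT libraries and 126 and 45.5 in the 2 KO libraries. Stmn2, a tubulin-binding protein of axons, stood, by day, at 9.38 and 2.58 CPM for WT against 33.5 and 28.3 for KO. Both genes stood at 183 to 216 CPM in the ES libraries of WT and KO, above every differentiated library. Tubb3 (2.99 and 1.01 higher) and Nefm (2.41 and 1.48 higher) passed. Among 13 progenitor genes 3 were at least 2-fold higher and 2 lower on both days, with medians of 0.64 and 0.03. Olig1 and Olig2, described above, were among the 3 that were higher. Both were under 1 RPKM in each WT library. They could be tested only through the mutant libraries and so had to differ. Nes (nestin) was 0.43 and 1.40 higher and Irx3 differed by -2.03 and -0.80, each past 2-fold on 1 day only. The summed level of the 28 progenitor genes was 461 and 462 CPM for WT and 442 and 498 for KO.

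Genes of DNA replication and division were higher by a small and even amount. Of all 12896 genes, 4501 (34.9%) were higher in KO on both days by any amount and 4067 (31.5%) lower. Of 42 replication licensing and fork genes 39 were higher on both days and 0 lower on both, with medians of 0.64 and 0.70. At least 2-fold higher on both days were 4 (5.55% of all genes), and 31 passed as higher (16.2% of all genes). Rpa1 and Rpa2, which coat single-stranded DNA, were 1.18 to 1.33 higher, and the polymerase subunits Pole (37.8 and 17.0 CPM for WT, 83.7 and 53.6 for KO) and the X-linked Pola1 behaved alike. Of 25 mitotic genes 23 were higher on both days by any amount and 18 passed; Top2a, the topoisomerase of dividing cells, was at 303 and 164 CPM for WT against 548 and 376 for KO. Between day 12 and ES cells the medians of these lists were -1.50 (replication) and -1.17 (mitosis) in WT, and -0.72 and -0.32 in KO.

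Heterochromatin genes were more often higher than lower, and genes of H4K20 methylation were not. Of 33 heterochromatin and silencing genes 22 were higher on both days by any amount and 3 lower (34.9% and 31.5% of all genes), 3 were at least 2-fold higher, and 16 passed as higher and 0 as lower, with medians of 0.38 and 0.44. Rif1, which organises late replication, read 97.4 and 68.9 CPM in the WT libraries against 396 and 204 in those of KO. Atrx, the X-linked remodeller that deposits H3.3 in heterochromatin, had 176 and 108 CPM in the 2 WT libraries and 488 and 297 in the 2 KO libraries. Hells (LSH), a remodeller that aids DNA methylation, was 1.59 and 1.07 higher, and Cbx1 (HP1 beta), which binds methylated H3, 1.35 and 0.99 higher. Of 13 H4K20 enzymes and associated genes 3 were higher and 7 lower on both days by any amount, with medians of -0.12 and -0.34. In this list 2 passed as higher and 4 as lower, 1 of the 4 being Suv420h2 itself (16.2% and 11.3% of all genes). Smyd5, a methyltransferase linked to H4K20, was 0.70 and 0.63 higher, and the chromatin factors Bahd1 (-0.93 and -1.56) and Phf2 (-1.72 and -0.86), a histone demethylase, were lower. Lmna (lamin A), of the nuclear envelope of differentiated cells, stood, by day, at 132 and 214 CPM for WT against 22.7 and 63.4 for KO, and the condensin subunit Ncapd2 was 1.30 and 1.90 higher.

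Metabolic and signalling genes showed smaller or divided differences. Over all genes 16.2% passed as higher and 11.3% as lower. Past 2-fold on both days were 5.55% (higher) and 4.24% (lower) of all genes, and by any amount 34.9% and 31.5%. Fasn, the fatty acid synthase, read 546 and 369 CPM in the WT libraries against 1622 and 858 in those of KO, and 9 of 27 cholesterol and lipid genes passed as higher and 1 as lower. Slc7a3, an X-linked amino acid transporter of ES cells, had 9.07 and 3.97 CPM in the 2 WT libraries and 148 and 50.4 in the 2 KO libraries, whereas Atf3, a stress-induced repressor, differed by -1.99 and -2.30, and among 27 genes of the integrated stress response 9 passed as higher and 8 as lower. Of 31 p53 targets and regulators 12 passed as higher and 1 as lower, and 2 were at least 2-fold higher on both days. In ES cells 17 of the 30 tested there were called higher and 0 lower in KO (23.5% and 19.2% of all genes). The list's medians were 0.55 and 0.35, against 0.51 in ES cells. Trp53 itself was 1.05 and 1.43 higher in embryoid bodies. Interferon and double-stranded RNA response genes, of which 28 could be tested, were at least 2-fold higher on both days in 6 cases and lower in 6. By any amount 7 were higher and 13 lower on both days, and on day 12 alone 6 were at least 2-fold higher and 12 lower, with medians of -0.05 and -0.93. Gbp2 and Psmb8, both induced by interferon gamma, were 1.33 to 3.30 higher, while B2m, the light chain of MHC class I, differed by -1.34 and -1.39. Of 21 canonical Wnt targets 4 were at least 2-fold higher on both days and 0 lower, with medians of -0.29 and 0.22. By any amount 9 were higher and 6 lower on both days, and 4 passed as higher and 1 as lower. Among the 4 past 2-fold were the effectors Tcf7 (65.0 and 35.2 CPM for WT, 181 and 106 for KO) and Lef1 (32.9 and 21.8 CPM for WT, 118 and 58.5 for KO). The ligands Wnt6 (log2 differences of -3.08 and -4.27) and Wnt11 (-2.88 and -2.97) went the other way.

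By chromosome, the median gene of X was 0.49 higher on day 8 and 0.48 on day 12, or 1.41 and 1.39-fold, against 0.87 in the fit of ES cells. Chromosome 1 lay lower by medians of -0.51 and -0.43 and chromosome 14 by -0.41 and -0.31, against -0.57 and -0.54 in ES cells. The fitted medians of the other autosomes ran from -0.10 to 0.23, the highest being chromosome 11. Of 460 X-linked genes tested 253 were higher in KO on both days and 83 lower. Of 702 genes on chromosome 1, 439 were lower on both days and 106 higher. Over all genes 34.9% were higher and 31.5% lower on both days. Uty had 456 and 277 reads in WT and 0 in either KO library, at least 140-fold lower on day 8 and 100-fold on day 12 against a floor of 3 counts per library. Several genes named above lie on X (Xist, Tsix, Pnma5, Usp26, AU022751, Nr0b1, Slc7a3, Atrx and Pola1), and their part in the X-wide median was not tested. Sox17, Ihh, Fmod, Atf3 and Wnt6, all lower in KO, lie on chromosome 1, and Gata4 and Sox7 on chromosome 14, where the median gene was lower as well, though by less. Lefty2 and Mael, also on chromosome 1, were higher in KO, as Nefm on chromosome 14 was.

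**Figure D5:**
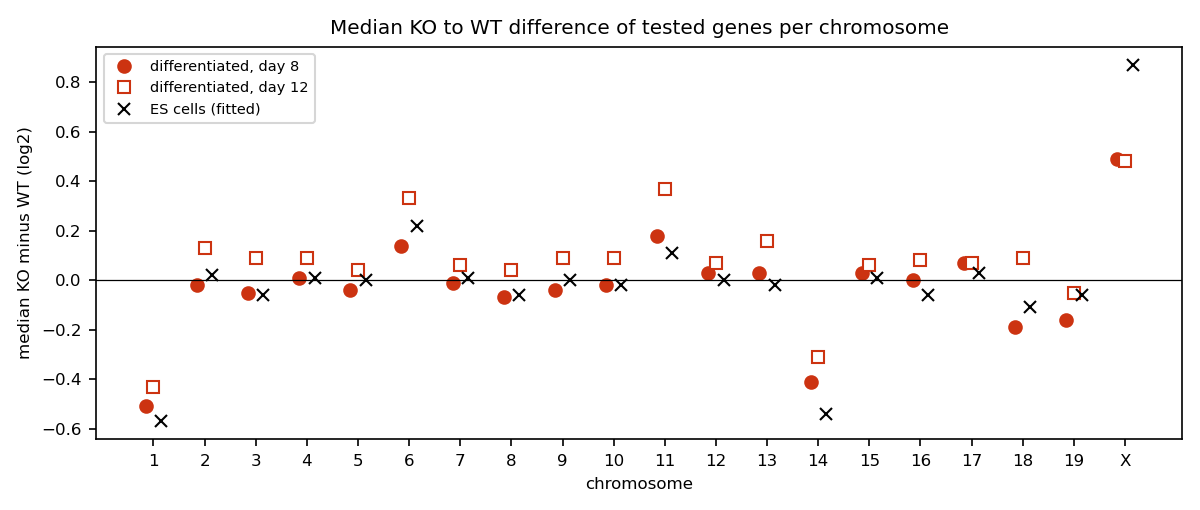
Median KO minus WT difference (log2, y axis) of the tested genes of each chromosome (x axis) on day 8 (filled circles), day 12 (open squares) and in ES cells (crosses, fitted). Chromosome X lies above the others, and chromosomes 1 and 14 lie below, on both days and in ES cells.

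Whether the difference in embryoid bodies is that of ES cells was tested as an interaction in all 12 libraries. Of 13429 genes, 1218 (9.07%) had a higher and 972 (7.24%) a lower KO to WT difference in embryoid bodies than in ES cells. Leaving out 1 of the 4 WT or KO ES libraries cut the 2190 calls to between 395 and 598, and leaving out WT day 12 raised them to 3891. Of the pluripotency genes 23 of 34 passed as higher and 1 as lower, among them Pou5f1 (2.97), Sox2 (2.94) and Lefty2 (3.4 on the log2 scale). Of the replication genes 20 of 42 passed as higher, and of the matrix genes 10 of 28 as lower. Of 997 tested genes at least 2-fold higher in KO ES cells, 219 (22.0%) were at least 2-fold higher on both days of differentiation. Of 526 lower ones 66 (12.5%) were lower. Over all genes the shares were 5.55% higher and 4.24% lower. Past 2-fold in the opposite direction on both days were 44 of the 997 and 12 of the 526. Seen from the differentiated cells, 682 of the 716 higher genes could be tested in ES cells. Of these, 219 (32.1%) were past 2-fold in the same direction there, as were 66 of the 315 lower genes that could be tested. In the opposite direction there were 12 of the 682 and 44 of the 315. Among all 12044 genes tested in ES cells, 1164 were at least 2-fold higher and 575 lower by the same criteria.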

How the data were processed

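Polyadenylated RNA was sequenced in 12 libraries; reads were aligned with Bowtie2 to mm9, per the submitters' processing notes, with no version given. The counting program and any use of strand are not stated by these notes or the labels. The authors deposited, for 29257 transcript models, whole-number read counts and RPKM, the counts divided by model length and a library total. The longest model stood for each of 22878 gene symbols. CPM values are counts scaled with TMM over 12 libraries, and log2 differences used a pseudocount of 0.5 CPM, which understates changes of low genes.

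Counts were tested with edgeR 4.0.16 (quasi-likelihood, genotype and day, 6 differentiated libraries including DKO, which only add to the estimate of spread; Benjamini-Hochberg over all genes tested). DESeq2 1.42.0 and limma 3.58.1 (R 4.3.3) were alternatives. A standard error is the fitted difference divided by the square root of F. "Over the alternatives" covers every fit of that gene, leave-outs included. The tests were tested on simulated data. Summaries and plots were made in Python 3.11.15 (pandas 2.3.3 and numpy 2.4.6 for the tables, matplotlib 3.10.9 for the drawings).

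The members and the 35 gene lists were chosen with earlier results of these data known, so list counts are descriptions. Named genes were the targeted genes, the 10 highest and 10 lowest by the smaller of the day differences, up to 4 per list by the same ranking, 5 per direction with opposite signs on the 2 days, and Xist and Y-linked genes. Pou5f1, Sox2, Nanog, Klf4, Stat3, Zfp42, Mael, Ddx4, Sycp3, Zp3, Afp, Ttr, Hbb-y, Gata1, Kdr, Pecam1, H19, Phlda2 and Dlk1 fell outside this rule and were chosen after their values were seen. Of 1001 list symbols, 3 were not matched. Chromosomes came from RefSeq by transcript accession, then by symbol or synonym (99.7% of symbols matched). Promoter windows came from RefSeq on GRCm38.p6, a build other than that of the alignment. They were taken by the gene matched in this way, not by position. Libraries were grouped by their labels. No labels say that libraries came from separate cultures. Some items are not reported here.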

Additional observations from a re-analysis of the deposited data

Results flagged for a closer look

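The interaction test over 12 libraries asked, gene by gene, whether the KO to WT difference in embryoid bodies departs from that in ES cells. Among the 127 genes named in the text it gave an adjusted p under 0.05 for 62, and each value below is the difference in embryoid bodies minus that in ES cells, on the log2 scale. Where a gene had almost no reads in ES cells, the size rests on few counts.

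Regulators of pluripotency, the epiblast and mesoderm had a higher difference in embryoid bodies: Pou5f1 (2.97), Sox2 (2.94), Nanog (1.92), Gdf3 (2.80), Lefty2 (3.4), Nr0b1 (3.91), Zfp42 (3.65), Nodal (1.97), Foxd3 (2.42) and Tcf15 (3.65). The value of Zfp42 comes mainly from ES cells, where it was lower in KO. Germline genes were Dnmt3l (3.03), Tdrd12 (3.34) and Ddx4 (1.85). On X, apart from Nr0b1, they were Xist (8.14), Tsix (6.93), AU022751 (3.64) and Slc7a3 (2.82). Others higher were Hsd17b14 (3.76), Ina (3.43), Stmn2 (2.35), Rif1 (1.43), Hells (1.20), Rpa1 (1.08), Rpa2 (1.0), Pole (1.35), Top2a (0.94), Fasn (1.08), Trp53 (1.43), Tcf7 (1.66) and Smyd5 (0.82).

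Endoderm, matrix and growth genes had a lower difference in embryoid bodies. Endoderm regulators and products were Sox17 (-4.63), Gata4 (-3.01), Sox7 (-3.25), Ihh (-2.60), Amn (-5.49) and Aqp8 (-7.74). Matrix genes were Lama1 (-4.07), Col4a1 (-4.21), Col4a2 (-3.86), Col6a1 (-5.38), Col6a2 (-2.41) and P4ha1 (-1.84). Imprinted genes were Zim1 (-5.80), Cdkn1c (-3.60), Grb10 (-3.43), Phlda2 (-1.53), Igf2 (-4.21), Igf2as (-5.14), Igf2r (-3.05) and Dlk1 (-7.26). Regional and lineage genes were Hoxc10 (-5.82), Hoxc9 (-8.40), Hoxa9 (-5.64), Gata3 (-8.01), Flt1 (-1.97), Nkx2-5 (-2.66) and Wnt6 (-5.33). Olig2 (-2.37), Lmna (-2.17), Atf3 (-2.72), Bahd1 (-1.51) and Phf2 (-2.11) made up the rest. Olig2 was higher in KO in both states, so its value says that the distance was smaller in embryoid bodies. Gata3 had a fitted log2 difference of 6.12 in ES cells and -1.88 in embryoid bodies, so its value comes mainly from ES cells.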

How the results depend on the processing

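The count of genes passing an adjusted p of 0.05 between KO and WT embryoid bodies depended on the fit. It was 0 in the 6-library edgeR fit, with other size factors, with a floor of 5 RPKM, with 4 libraries, with the model of most reads and without any 1 of the 6 libraries, 7 with no filter on low values, 136 and 160 with limma on log2(RPKM + 1) and log2(RPKM + 0.1), and 1836 with DESeq2. With 12 libraries it was 3698, or 3693 with DESeq2 size factors, 4752 with DESeq2, 3770 with limma, 3109 with a floor of 5 RPKM and 3705 with the model of most reads, and 2140 to 5224 leaving out 1 library (3441 without WT day 8, 3645 without KO day 12). The fits added to the 12-library fit and the model of most reads were chosen after the data were seen. With no replicate block, that is without the day term, 1 gene passed. The interaction gave 3308 genes with DESeq2 and 395 to 3891 leaving out 1 library. With a replicate block for the ES libraries it gave 1264, but the ES replicate numbers do not pair the samples: same-numbered deviations correlated at -0.01, -0.05 and -0.08. At least 1.5-fold on both days were 2851 genes and at least 4-fold 280.

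With library totals the medians were -0.38 for chromosome 1, -0.23 for chromosome 14 and 0.59 for X, and with DESeq2 size factors X was at 0.47. On single days they ran from -0.51 to -0.43 for chromosome 1 and from 0.48 to 0.49 for X. DESeq2 size factors put the list medians at -1.0 (trophoblast), -1.45 (endoderm regulators), 0.49 (heterochromatin) and 0.28 (lipid synthesis), and the 12-library fit put endoderm regulators at -1.43. Of the 127 genes named, 102 passed in the 12-library fit, 102 with DESeq2 and 37 with limma. In 16 of them at least 1 fit, leave-outs included, gave the opposite sign: Irx2, Actc1, Hbb-bh1, Hbb-y, Plvap, Icam2, Foxd1, Rhox6, Lif, Nefl, Gata1, Slc4a1, Kdr, Afp, Ttr and Suv420h1. Why the counts move between fits was not tested. Values under 1 CPM rest on few reads.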
